A study of Mus musculus with 12 samples.

Results

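The 50 collagen and laminin genes of mouse EGFR+ glioblastoma (GBM) cells are described here, across 4 cell populations sorted from the same tumors. They are the rows of an expression table of 18180 genes whose symbol is that of a collagen alpha chain or of a laminin alpha, beta or gamma chain, and that match uses no measured value. Of the 50 genes, 10 encode fibrillar collagens, 8 basement membrane collagens, 23 other collagens and 9 laminin chains. The chains of *Col6a6*, *Col17a1*, *Col21a1*, *Col24a1* and *Lamb3* were not analysed here.

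Collagens are secreted or membrane-bound trimers of alpha chains wound into a helix. Fibrillar collagens build the banded fibrils of connective tissue, type IV collagen forms the network of basement membranes, and laminins, each a trimer of an alpha, a beta and a gamma chain, polymerize on the cell surface and anchor that network. In the brain these proteins are concentrated around blood vessels and in the meninges, and the parenchyma holds few fibrils.

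Bulk RNAseq was made from 3 end-stage GBMs, T3, T4 and T5, each sorted into PDGFRA+, PDGFRA-, GAL1+ and GAL1- cells, for 12 libraries in all and 3 per population. The tumors were started in adult mice by intracranial injection of a lentivirus carrying Cre, which switched on conditional human EGFR and a conditional luciferase reporter in animals that were also Cdkn2a-/-, on a mixed background (C57Bl/6J, 129S4, FVBN/J, Balb/cJ). All 4 populations share the genotype and the gate on EGFR, and there were no cells from tumor-free brain among them. Labels name the gates PDGFR and Gal1, and the study calls them PDGFRA and GAL1 (Galectin-1). The 2 stains were made separately on a tumor, so a cell type or a cell state can be in a PDGFRA gate and in a GAL1 gate at once. The study's account of the results describes the sorted cells as CD45-, while for this sort its methods name EGFR, PDGFR and Galectin-1 antibodies. Each tumor number is taken here as 1 animal, which the study does not state for this sort. In bulk samples, fewer cells of a type and less RNA per cell cannot be told apart.

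Levels are read counts scaled to library size, on the log2 scale (log2 CPM), as the authors deposited them. Reads per library, recovered from those values, ran from 9851175 to 24117541, so that 3 reads, used here as the floor of detection, lay at a log2 CPM of -2.99 to -1.44. This floor covers counting error only. The gene of the gate, *Pdgfra*, was at 9.95 to 10.81 in PDGFRA+ and 7.36 to 10.11 in PDGFRA- cells (adjusted p = 0.249 from limma), and *Lgals1*, which encodes Galectin-1, was at 7.41 to 7.95 in GAL1+ and 6.05 to 6.81 in GAL1- cells (adjusted p = 0.000967). Mouse *Egfr* was at 7.68 to 9.02 in GAL1+ cells and at 8.16 or more in each other library. *Ptprc*, which encodes CD45, was read in every population, at 3.70 to 5.18 in GAL1- and at 8.21 to 9.00 in GAL1+ cells.

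A pair of libraries stood apart in the collagen and laminin genes. The PDGFRA- library of T4 held the highest of the 12 values for 29 of the 50 genes, against 14.5% of all genes, and the GAL1- library of T3 held the lowest value for 22 of 50, against 16.1% of all genes. The summed CPM of the 50 genes was 12288 in the PDGFRA- library of T4 and 2140 to 6914 in the other 11 libraries. That library was also the shallowest. Counts are given with and without these libraries, and so are the fold changes of single genes that lost their call or moved by over 1.5 times on the log2 scale.

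In the 12 libraries, 45 of the 50 genes were above the floor throughout, and the other 5 (*Col6a4*, *Col8a2*, *Col10a1*, *Col22a1* and *Col26a1*) were at or under it in at least 1 library. Levels of different genes are compared here only per transcript length. On the scale of log2 CPM per kilobase of exon, the median of the mean levels was 2.85 for fibrillar collagens, 2.17 for basement membrane collagens, 2.35 for laminins and 0.57 for the other collagens. *Col4a1* had the highest mean at 6.03, followed by *Col16a1* at 5.63, *Col4a2* at 5.46, *Col18a1* at 5.25, *Col11a1* at 5.13 and *Lamc1* at 4.77. The lowest was *Col6a4* at -5.42. As a share of the reads of the 50 genes, which grows with transcript length, *Col4a1* took 14% to 17.8% in GAL1+ cells and 6.7% to 8.9% in GAL1- cells. *Col11a1* took 4.15% to 6.84% in GAL1+ and 15% to 28.6% in GAL1- cells, where it led in each tumor. *Col6a3* took 6.45% to 18.1% in GAL1+ and 0.639% to 1.7% in GAL1- cells. *Col4a1* led in the GAL1+ cells of T3 and T4, and *Col6a3* in those of T5.

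**Figure D1:**
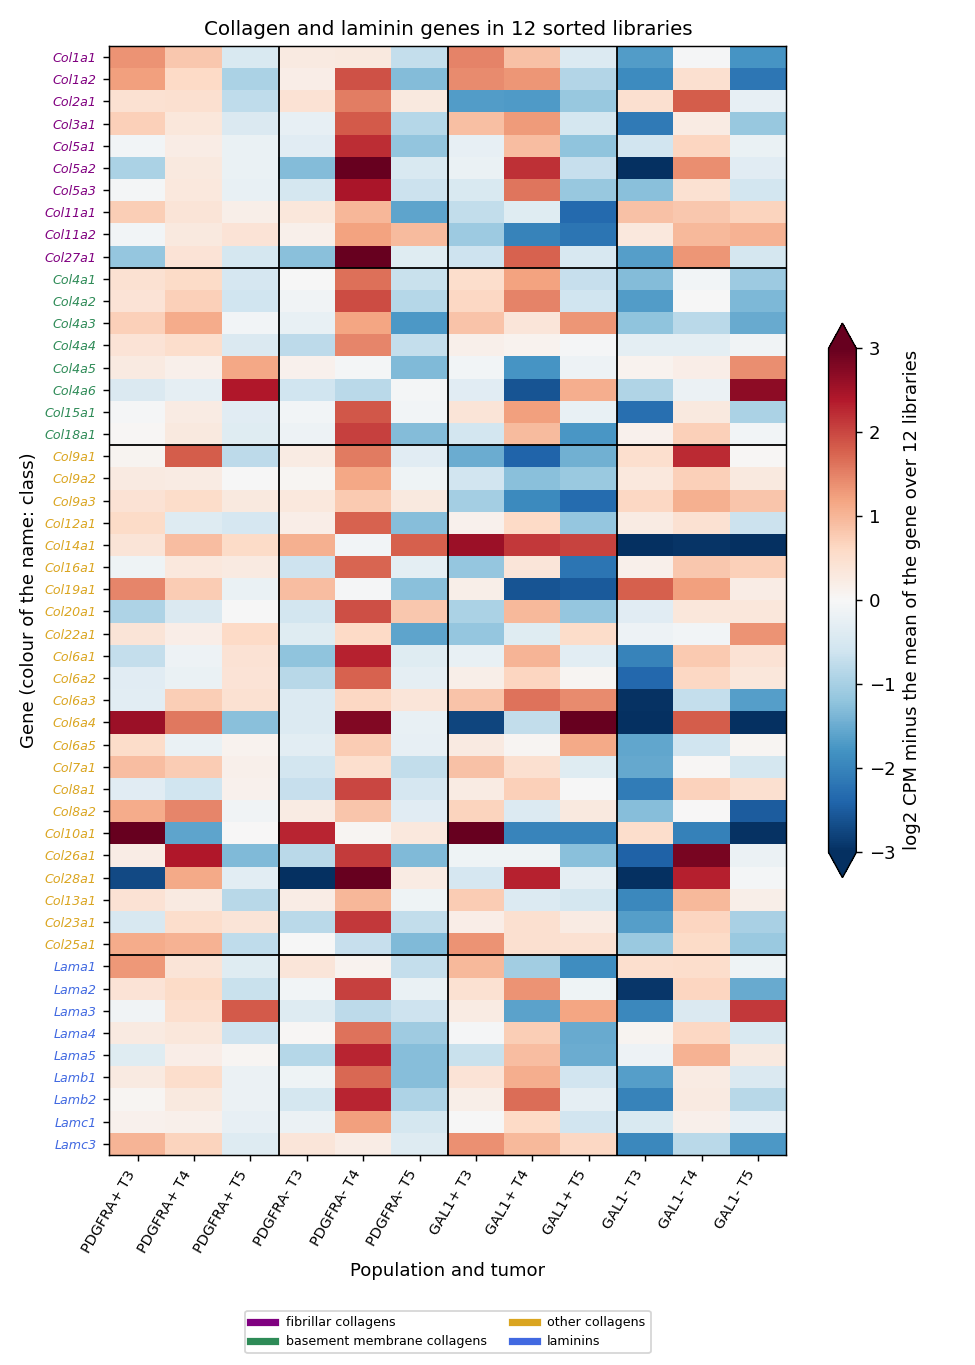
Each row is a collagen or laminin gene and each column a library, coloured by the log2 CPM minus that gene's mean over the 12 libraries (values beyond 3 are drawn at 3). The PDGFRA- library of T4 is the reddest column, with the highest value for 29 of 50 genes, and the GAL1- library of T3 the bluest, with the lowest value for 22.

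Differences between populations were tested with limma over all 18180 genes, with the tumor as a block, and a gene was called at a Benjamini-Hochberg adjusted p under 0.05. A fold change is given as log2, the first population over the second, with its standard error (SE). The 4 comparisons share samples, since PDGFRA+ cells enter 3 of them and GAL1+ and GAL1- cells 2 each, so they are set side by side and are not independent. A call in one comparison and none in another is not a difference between them, and that difference was not tested.

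In GAL1+ against GAL1- cells 23 of the 50 genes were called. Of these, 15 were higher in GAL1+ cells (30% of the 50, where 28.9% of all genes were called higher) and 8 were lower (16%, where 29.3% of all genes were called lower). The share higher was close to the background and the share lower was under it. The median log2 fold change was 0.48 for the 50 genes and -0.03 for all genes. Without the tumor block 5 were called higher and 7 lower, where 4248 and 4144 of all 18180 genes were. With T3 left out 5 were called higher and 9 lower, where 4139 and 3956 of all genes were. In both settings the share of the 50 called higher lay under that of all genes. With only the GAL1- library of T3 left out, 10 were called higher and 11 lower, where 4816 and 4698 of all genes were. The median log2 fold change of the 50 was then 0.19. In 13 of the 50 genes the GAL1+ and GAL1- values did not overlap, which held for 60.6% of all genes.

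In PDGFRA+ against GAL1+ cells 8 of the 50 genes were called higher in PDGFRA+ cells, where 20.9% of all genes were, and 2 were called lower, where 17% of all genes were. Both counts lay under the background share, at 16% and 4% of the 50. The median log2 fold change was 0.01 for the 50 genes and 0.01 for all genes. The values did not overlap for 9 of the 50 genes and for 46% of all genes. Among all called genes 55.1% were higher in PDGFRA+ cells, and 40.8% after each library was centred on its median, which moved the median log2 fold change of all genes from 0.01 to -0.15. With T3 left out 4 of the 50 were called higher and 1 lower, where 1813 and 297 of all 18180 genes were. The 2 lower calls were lost when T5 was left out.

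In PDGFRA+ against GAL1- cells 4 of the 50 genes (8%) were called higher in PDGFRA+ cells, where 8.26% of all genes were, and 0 were called lower, where 0.011% of all genes were. The values of 7 of the 50 did not overlap, against 24.6% of all genes. Centring on the library median moved the median log2 fold change of all genes in this comparison from -0.02 to -0.13. With T3 left out limma called 0 of the 50 genes and 0 of all genes, with 7 of the 50 at an unadjusted p under 0.05 (14 with all tumors, against 17.3% of all genes). With the PDGFRA- library of T4 left out, which only enters the estimate of the spread here, 7 of the 50 and 1906 of all genes were called higher.

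In PDGFRA+ against PDGFRA- cells limma called 0 of the 50 genes, where 0% of all 18180 were called. The smallest adjusted p among the 50 was 0.366. At an unadjusted p under 0.05 there were 4 of the 50 and 11.8% of all genes. These 4 were *Col20a1* (log2 fold change -1.19, adjusted p = 0.366), *Col19a1* (0.80, adjusted p = 0.423), *Col7a1* (0.88, adjusted p = 0.42) and *Col25a1* (1.13, adjusted p = 0.425). Over all libraries 30 of the 50 log2 fold changes were below 0, with a median of -0.13. Without the PDGFRA- library of T4, 10 of the 50 were below 0, 20 had changed sign and the median was 0.31, and again none was called (smallest adjusted p = 0.187). The values of 2 of the 50 genes did not overlap between these populations, against 6.94% of all genes.

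**Figure D2:**
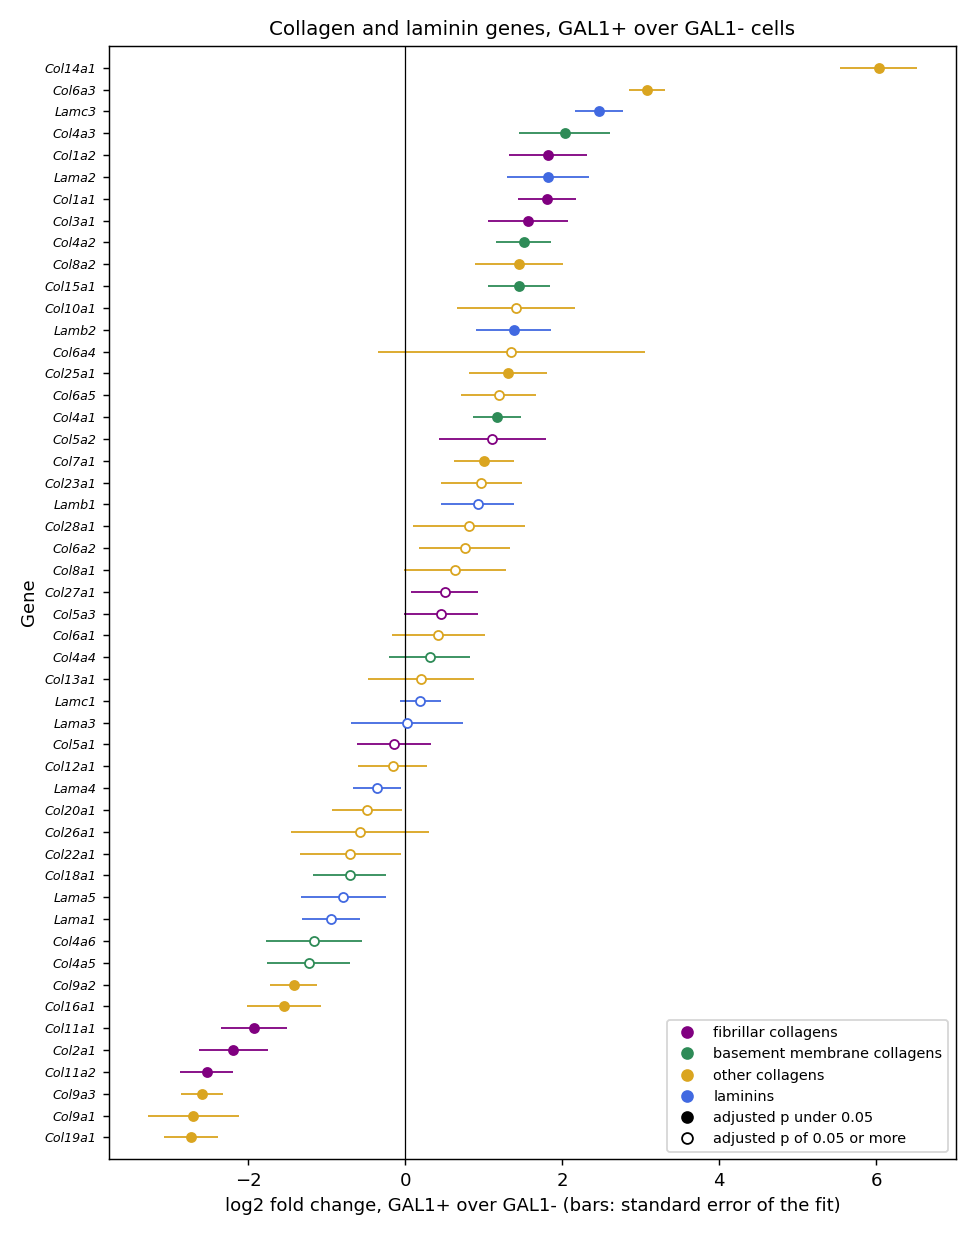
Points are log2 fold changes of GAL1+ over GAL1- cells from the limma fit with the tumor as a block, with standard errors as bars, coloured by gene class and filled where the adjusted p was under 0.05. The 23 filled points run from -2.73 for *Col19a1* to 6.03 for *Col14a1*, and all 4 filled basement membrane collagens and all 3 filled laminins lie above 0.

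*Col1a1*, *Col1a2* and *Col3a1*, the chains of type I and type III collagen, were higher in GAL1+ than in GAL1- cells, and *Col2a1*, *Col11a1* and *Col11a2*, chains of type II and type XI collagen best known from cartilage, were lower. Thus 3 of 10 were called in each direction, a share near that of all genes (28.9% higher and 29.3% lower), and *Col5a1*, *Col5a2*, *Col5a3* and *Col27a1* were not called in any comparison. With T3 left out 1 of the 10 was called higher and 3 lower, where 4139 and 3956 of all 18180 genes were. Below, values are given for T3, T4 and T5 in that order.

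*Col1a1* stood at a log2 CPM of 7.30, 6.69 and 5.40 in GAL1+ cells, 4.15, 5.78 and 4.06 in GAL1- cells, 7.17, 6.62 and 5.36 in PDGFRA+ cells and 6.10, 6.12 and 5.10 in PDGFRA- cells. It was higher in GAL1+ than GAL1- cells of every tumor, although the lowest GAL1+ value, of T5, lay under the highest GAL1- value, of T4. The log2 fold change was 1.81 (SE 0.37, adjusted p = 0.00258), a 3.5-fold difference, and it was called under each of the 14 alternative settings, with 1.13 when T3 was left out. PDGFRA+ cells exceeded GAL1- cells by 1.72 (adjusted p = 0.0188), and by 1.14 without the GAL1- library of T3 (adjusted p = 0.0242). This second call was lost under 3 of 14 alternatives, with 1.07 without T3 (adjusted p = 0.0821) and 1.93 without T5 (adjusted p = 0.123). *Col1a2*, whose product joins that of *Col1a1* in type I collagen, stood at 7.05, 6.96 and 4.75 in GAL1+ cells and 3.73, 6.10 and 3.46 in GAL1- cells, with 6.86, 6.22 and 4.67 in PDGFRA+ and 5.83, 7.54 and 4.32 in PDGFRA- cells. Its ranges overlapped in the same way, and its log2 fold change of GAL1+ over GAL1- cells was 1.82 (SE 0.50, adjusted p = 0.0107), lost under 3 of 14 alternatives. It was 1.08 without T3 (adjusted p = 0.0611), 2.09 without T5 (adjusted p = 0.0534) and 1.20 without the GAL1- library of T3 (adjusted p = 0.0422). *Col3a1*, the chain of type III collagen in vessel walls, was at 8.00, 8.38 and 6.56 in GAL1+ and 4.98, 7.34 and 5.95 in GAL1- cells, with 7.81, 7.43 and 6.67 in PDGFRA+ and 6.84, 8.93 and 6.24 in PDGFRA- cells. It was the second highest fibrillar collagen by reads, and its highest value was that of the PDGFRA- library of T4. For GAL1+ over GAL1- cells its log2 fold change was 1.56 (SE 0.51, adjusted p = 0.0245), lost under 3 of 14 alternatives, with 0.82 without T3 (adjusted p = 0.164) and 0.94 without its GAL1- library (adjusted p = 0.112).

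*Col11a1* was the most abundant fibrillar collagen, at 8.07, 8.43 and 6.47 in GAL1+, 9.69, 9.60 and 9.48 in GAL1-, 9.55, 9.19 and 8.98 in PDGFRA+ and 9.15, 9.79 and 7.21 in PDGFRA- cells. The GAL1- values lay within 0.21 of each other and above every GAL1+ value, and the PDGFRA+ values also lay above every GAL1+ value. The log2 fold change was -1.93 in GAL1+ over GAL1- cells (SE 0.42, adjusted p = 0.00336) and 1.59 in PDGFRA+ over GAL1+ cells (adjusted p = 0.0171). *Col11a2* was at 4.29, 3.36 and 3.18 in GAL1+, 5.68, 6.34 and 6.40 in GAL1-, 5.29, 5.67 and 5.78 in PDGFRA+ and 5.53, 6.58 and 6.32 in PDGFRA- cells. GAL1+ cells were lowest in every tumor without overlap with any other population, by a log2 fold change of -2.53 against GAL1- cells (SE 0.34, adjusted p = 0.000227) and with 1.97 in PDGFRA+ over GAL1+ cells (adjusted p = 0.00308). *Col2a1*, at 0.14, 0.11 and 0.69 in GAL1+ and 2.29, 3.63 and 1.58 in GAL1- cells, was far less abundant. It differed by -2.19 (SE 0.44, adjusted p = 0.00209) and, in PDGFRA+ over GAL1+ cells, by 1.56 (adjusted p = 0.0212). The 3 lower calls among fibrillar collagens in GAL1+ against GAL1- cells were made under all 14 alternatives. In PDGFRA+ over GAL1+ cells the call of *Col11a2* was also made under all 14. Those of *Col2a1* and *Col11a1* were lost under 3 and 2 of 14, with adjusted p = 0.198 and 0.139 without T3.

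Type V chains, which set the width of fibrils, were highest in T4 in every population. *Col5a1* was at 6.29, 7.45 and 5.32 in GAL1+, 5.97, 7.17 and 6.34 in GAL1-, 6.46, 6.75 and 6.34 in PDGFRA+ and 6.19, 8.75 and 5.36 in PDGFRA- cells. *Col5a2* was at 6.63, 9.02 and 6.12 in GAL1+, 3.74, 8.22 and 6.47 in GAL1-, 5.87, 7.12 and 6.61 in PDGFRA+ and 5.51, 10.18 and 6.36 in PDGFRA- cells. For both genes the PDGFRA- library of T4 was the highest of the 12, and neither gene was called in a comparison. Across the 50 genes T4 was the highest of the 3 tumors for 25 genes in GAL1+, 40 in GAL1-, 26 in PDGFRA+ and 41 in PDGFRA- cells, against 25.4%, 31%, 26.1% and 32.3% of all genes.

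**Figure D3:**
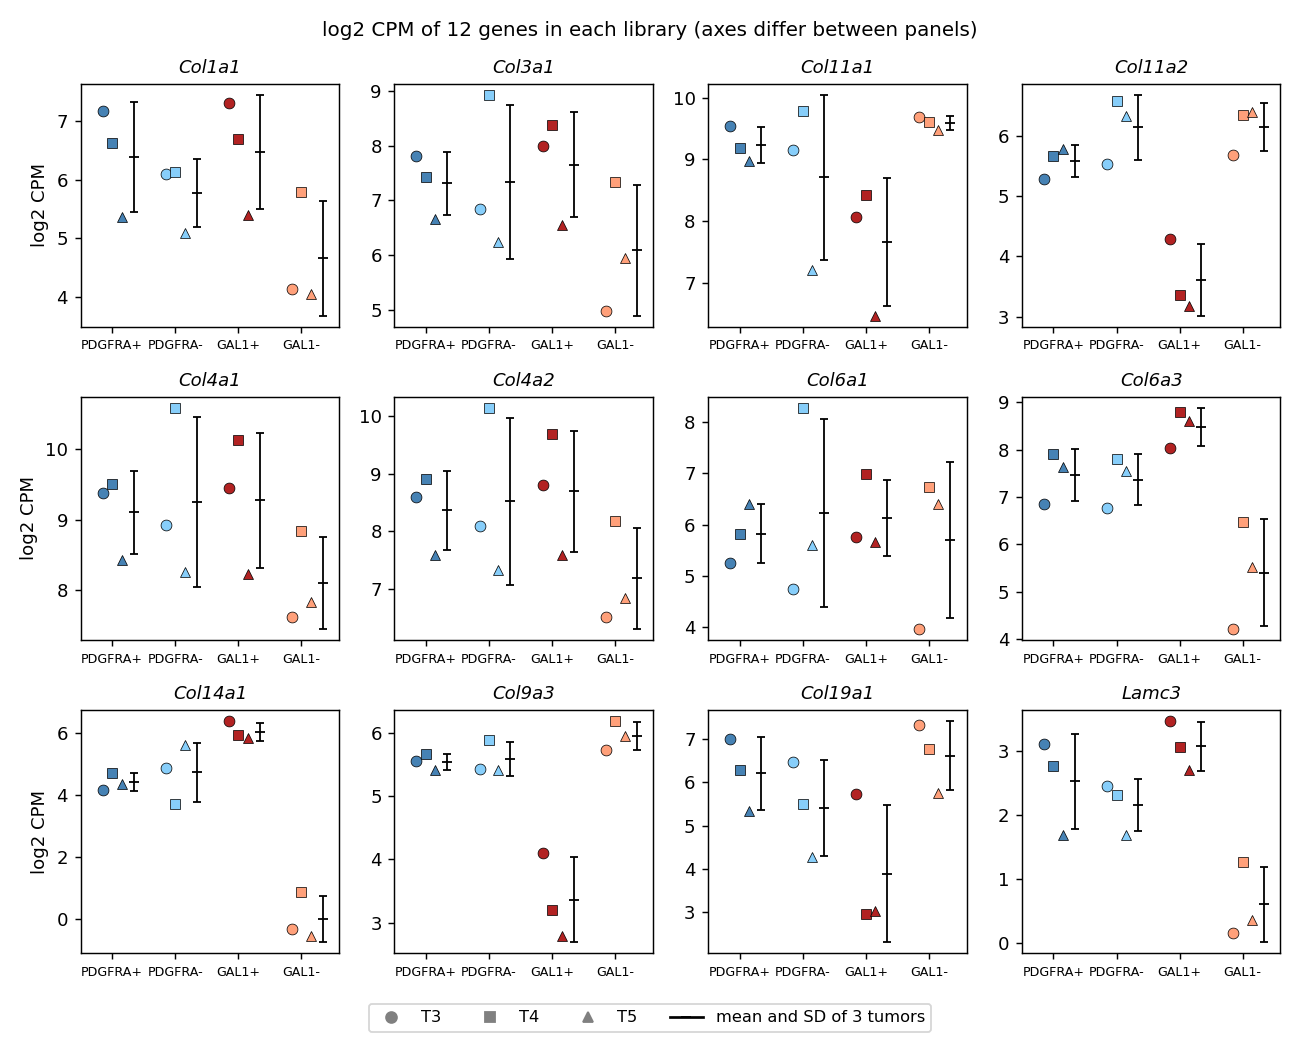
Panels show 12 collagen and laminin genes, with log2 CPM on axes that differ between panels, a marker shape per tumor and, beside each population, the mean and SD of 3 tumors. *Col14a1* spans 5.82 to 6.37 in GAL1+ and -0.54 to 0.86 in GAL1- cells, whereas the *Col1a1* ranges of these populations overlap.

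In GAL1+ over GAL1- cells *Col4a1*, *Col4a2*, *Col4a3* and *Col15a1* were higher, 4 of 8, where 28.9% of all genes were, and 0 of 8 were called lower, where 29.3% of all genes were. In PDGFRA+ against GAL1+, PDGFRA+ against GAL1- and PDGFRA+ against PDGFRA- cells 0 of 8 were called. With T3 left out 0 of 8 were called higher in GAL1+ over GAL1- cells and 1 was called lower, where 4139 and 3956 of all 18180 genes were. With only the GAL1- library of T3 left out 4 were called higher and 2 lower, and without the tumor block 1 was called higher.

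*Col4a1* and *Col4a2* encode the chains of the type IV network found in all basement membranes. They lie side by side on chromosome 8 and are read in opposite directions from a shared start region. The promoter windows of both genes are shown because the pair moved together, and each holds 300 bases around the RefSeq start. The *Col4a1* window is chr8:11312777-11313076 on the minus strand and the *Col4a2* window chr8:11312555-11312854 on the plus strand (GRCm38.p6), with the 78 bases that both windows hold in capitals.

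Col4a1: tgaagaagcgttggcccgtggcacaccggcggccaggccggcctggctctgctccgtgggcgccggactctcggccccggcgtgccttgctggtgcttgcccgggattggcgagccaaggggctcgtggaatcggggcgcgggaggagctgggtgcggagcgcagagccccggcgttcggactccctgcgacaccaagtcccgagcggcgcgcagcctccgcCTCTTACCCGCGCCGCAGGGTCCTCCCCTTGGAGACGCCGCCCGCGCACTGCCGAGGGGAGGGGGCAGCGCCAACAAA
Col4a2: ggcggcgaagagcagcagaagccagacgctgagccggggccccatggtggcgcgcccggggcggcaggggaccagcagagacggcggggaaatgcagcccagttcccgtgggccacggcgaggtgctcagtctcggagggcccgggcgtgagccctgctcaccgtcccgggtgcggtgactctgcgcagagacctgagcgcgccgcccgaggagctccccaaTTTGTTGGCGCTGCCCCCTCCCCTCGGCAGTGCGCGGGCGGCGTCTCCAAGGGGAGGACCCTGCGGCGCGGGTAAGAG

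*Col4a1* was at a log2 CPM of 9.45, 10.13 and 8.23 in GAL1+ and 7.62, 8.84 and 7.83 in GAL1- cells, with 9.38, 9.50 and 8.42 in PDGFRA+ and 8.92, 10.58 and 8.26 in PDGFRA- cells. *Col4a2* was at 8.80, 9.68 and 7.58 in GAL1+ and 6.51, 8.18 and 6.84 in GAL1- cells, with 8.60, 8.90 and 7.59 in PDGFRA+ and 8.09, 10.14 and 7.32 in PDGFRA- cells. Both genes were higher in the GAL1+ cells of each tumor, while the T5 value of GAL1+ cells was under the T4 value of GAL1- cells. The log2 fold changes were 1.17 (SE 0.31, adjusted p = 0.00891) for *Col4a1* and 1.51 (SE 0.35, adjusted p = 0.00438) for *Col4a2*, lost under 3 and 2 of 14 alternatives. Without T3 they were 0.84 (adjusted p = 0.0942) and 1.12 (adjusted p = 0.0563). In PDGFRA+ over GAL1- cells they were 1.00 (adjusted p = 0.0886) and 1.19 (adjusted p = 0.0722), which did not pass. Per kilobase, *Col4a1* exceeded *Col4a2* by 0.27 to 0.94 on the log2 scale in the 12 libraries.

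*Col15a1* and *Col18a1* encode collagens of the basement membrane zone, and the end fragment of the latter is endostatin, an inhibitor of vessel growth. *Col15a1* was at 5.90, 6.74 and 5.28 in GAL1+, 3.24, 5.79 and 4.55 in GAL1-, 5.47, 5.75 and 5.17 in PDGFRA+ and 5.42, 7.37 and 5.42 in PDGFRA- cells, a log2 fold change of 1.45 for GAL1+ over GAL1- cells (SE 0.39, adjusted p = 0.0108). Without T3 it was 0.84 (adjusted p = 0.0733) and without the GAL1- library of T3 0.92 (adjusted p = 0.0386). *Col18a1* was at 7.50, 9.02 and 6.32 in GAL1+, 8.20, 8.78 and 7.99 in GAL1-, 8.10, 8.35 and 7.69 in PDGFRA+ and 7.92, 10.11 and 6.75 in PDGFRA- cells and was not called. Their ratio per kilobase, *Col15a1* over *Col18a1*, had a log2 mean of -1.49 in GAL1+ cells (-2.13 to -0.89) and -3.65 in GAL1- cells (-4.81 to -2.85). Of the scarcer type IV chains, *Col4a3*, at 1.06, 0.56 and 1.52 in GAL1+ and -1.02, -0.62 and -1.31 in GAL1- cells, did not overlap and was called with a log2 fold change of 2.03 (SE 0.58, adjusted p = 0.0135), a call lost without T3 (adjusted p = 0.114). *Col4a5*, a chain of a further type IV network, pointed the other way and was not called (log2 fold change -1.23, adjusted p = 0.0691), although its values did not overlap between GAL1+ (2.49 to 4.16) and GAL1- cells (4.36 to 5.64).

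The other collagens gave the largest differences, in both directions. In GAL1+ over GAL1- cells 5 of 23 were called higher (*Col14a1*, *Col6a3*, *Col8a2*, *Col25a1* and *Col7a1*) and 5 lower (*Col19a1*, *Col9a1*, *Col9a3*, *Col16a1* and *Col9a2*), and both shares lay under the 28.9% and 29.3% of all genes called. All 5 lower calls were FACIT collagens, which sit on the surface of fibrils and do not form fibrils themselves, and they made up 5 of the 9 FACIT genes measured, where 29.3% of all genes were called lower. In PDGFRA+ over GAL1+ cells 4 of 9 FACIT genes were called higher and 1 lower, against 20.9% and 17% of all genes. With so few genes these shares are a description of the subclass.

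*Col14a1*, a FACIT collagen that binds type I fibrils, had the largest fold change of the 50 genes in 2 comparisons. It was at 6.37, 5.92 and 5.82 in GAL1+, -0.31, 0.86 and -0.54 in GAL1-, 4.17, 4.71 and 4.36 in PDGFRA+ and 4.86, 3.71 and 5.59 in PDGFRA- cells. GAL1+ values lay above all other libraries and GAL1- values below all others, with 702 to 1406 reads in GAL1+ and 16 to 43 reads in GAL1- libraries. The log2 fold change of GAL1+ over GAL1- cells was 6.03 (SE 0.49, adjusted p = 3.93e-05), or 65.4-fold, and it lay between 5.02 and 6.52 over the 14 alternatives. PDGFRA+ over GAL1- cells gave 4.41 (adjusted p = 0.00176) and PDGFRA+ over GAL1+ cells -1.62 (adjusted p = 0.028). Without T3 neither of these was called (adjusted p = 0.0805 and 0.233), and the latter was not called without T5 (adjusted p = 0.0624).

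The genes of type IX collagen, *Col9a1*, *Col9a2* and *Col9a3*, which coat type II fibrils in cartilage, were all lower in GAL1+ cells. *Col9a3* was at 4.10, 3.20 and 2.79 in GAL1+, 5.73, 6.18 and 5.95 in GAL1-, 5.55, 5.67 and 5.41 in PDGFRA+ and 5.42, 5.89 and 5.41 in PDGFRA- cells. *Col9a1* was at 0.35, -0.57 and 0.41 in GAL1+, 2.34, 4.09 and 1.87 in GAL1-, 1.92, 3.66 and 1.05 in PDGFRA+ and 2.09, 3.41 and 1.50 in PDGFRA- cells. For both genes every GAL1+ value lay under every value of the other 3 populations. The log2 fold changes of GAL1+ over GAL1- cells were -2.59 for *Col9a3* (SE 0.27, adjusted p = 6.5e-05), -2.70 for *Col9a1* (SE 0.58, adjusted p = 0.0032) and -1.42 for *Col9a2* (SE 0.30, adjusted p = 0.00305). In PDGFRA+ over GAL1+ cells they were 2.18 (adjusted p = 0.00139), 2.15 (adjusted p = 0.0189) and 1.15 (adjusted p = 0.0168). Without T4 the values of *Col9a1* were -1.73 and 1.11, both still called, and without T3 *Col9a1* and *Col9a2* were not called in the second comparison (adjusted p = 0.116 and 0.0763). *Col19a1*, the next gene to *Col9a1* on chromosome 1, was at 5.72, 2.95 and 3.02 in GAL1+, 7.33, 6.77 and 5.76 in GAL1-, 7.01, 6.29 and 5.33 in PDGFRA+ and 6.47, 5.50 and 4.27 in PDGFRA- cells. GAL1+ was the lowest population in each tumor, and the log2 fold changes were -2.73 against GAL1- cells (SE 0.35, adjusted p = 0.000177) and 2.32 in PDGFRA+ over GAL1+ cells (adjusted p = 0.002).

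*Col16a1* was the most abundant FACIT gene, at 7.24, 8.76 and 6.20 in GAL1+, 8.54, 9.20 and 9.11 in GAL1-, 8.26, 8.71 and 8.65 in PDGFRA+ and 7.78, 10.13 and 8.10 in PDGFRA- cells. GAL1+ was lower than GAL1- in each tumor, with a log2 fold change of -1.55 (SE 0.47, adjusted p = 0.0171) that was lost under 3 of 14 alternatives, with -0.87 without T5 (adjusted p = 0.154) and -1.68 without T3 (adjusted p = 0.0863). *Col12a1*, which like *Col14a1* binds type I fibrils, was at 6.47, 6.94 and 5.17 in GAL1+, 6.59, 6.79 and 5.68 in GAL1-, 6.91, 5.95 and 5.82 in PDGFRA+ and 6.54, 8.10 and 5.06 in PDGFRA- cells, and was not called in any comparison.

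Type VI collagen, which forms beaded filaments near cell surfaces, is built from the chains of *Col6a1*, *Col6a2* and *Col6a3*. *Col6a3* was at 8.03, 8.80 and 8.60 in GAL1+, 4.21, 6.46 and 5.52 in GAL1-, 6.85, 7.91 and 7.63 in PDGFRA+ and 6.76, 7.80 and 7.54 in PDGFRA- cells. Every GAL1+ value was above every other library, and every GAL1- value below. Its log2 fold change of GAL1+ over GAL1- cells was 3.08 (SE 0.23, adjusted p = 3.93e-05), or 8.45-fold, and it ran from 2.71 to 3.45 over the alternatives. It was 2.07 in PDGFRA+ over GAL1- cells (adjusted p = 0.00176) and -1.01 in PDGFRA+ over GAL1+ cells (adjusted p = 0.00912). The first of these calls was lost without T3 (adjusted p = 0.0805) and the second without T5 (adjusted p = 0.0723).

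Its partner chains were not called. *Col6a1* was at 5.75, 6.98 and 5.65 in GAL1+, 3.96, 6.74 and 6.40 in GAL1-, 5.25, 5.82 and 6.40 in PDGFRA+ and 4.75, 8.28 and 5.61 in PDGFRA- cells. *Col6a2* was at 5.58, 6.06 and 5.47 in GAL1+, 3.05, 6.02 and 5.74 in GAL1-, 5.06, 5.21 and 5.82 in PDGFRA+ and 4.58, 7.17 and 5.13 in PDGFRA- cells. Both ranges overlapped between GAL1+ and GAL1- cells, T5 was higher in GAL1- cells, and neither gene was called. *Col6a1* exceeded *Col6a2* per kilobase by 1.09 to 2.03 on the log2 scale in the 12 libraries. By contrast, *Col6a3* over *Col6a1* had a log2 mean of 0.90 in GAL1+ cells (0.37 to 1.49) and -1.76 in GAL1- cells (-2.33 to -1.20), with 0.19 in PDGFRA+ cells and -0.30 in PDGFRA- cells, where the library of T4 was at -1.93. Of the remaining type VI genes, *Col6a5* did not pass (log2 fold change 1.19, adjusted p = 0.0565) and *Col6a4* was at or under the floor in 7 libraries.

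**Figure D4:**
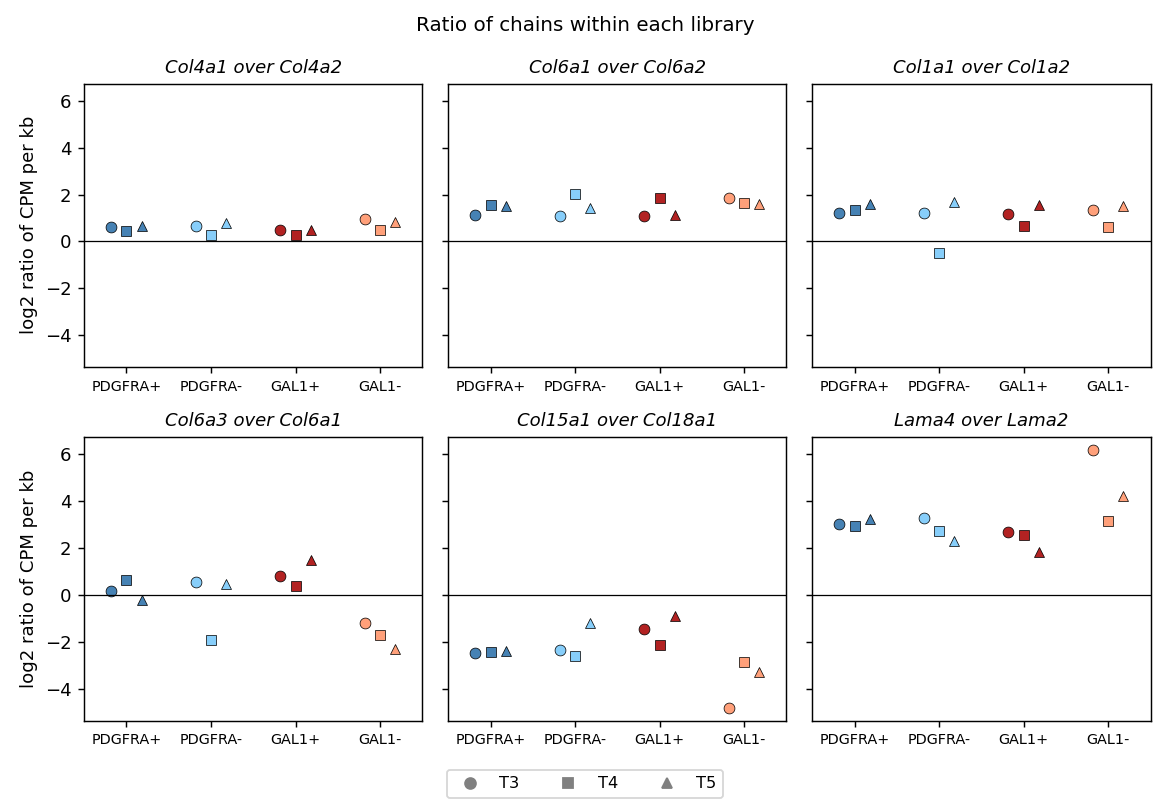
Each point is the log2 ratio of a pair of chains in a library, in CPM per kilobase of exon, with a marker shape per tumor and a line at equal levels. *Col4a1* over *Col4a2* stays between 0.27 and 0.94, while *Col6a3* over *Col6a1* is above 0 in the 3 GAL1+ libraries and below 0 in the 3 GAL1- libraries.

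The network and anchoring collagens *Col7a1*, *Col8a1*, *Col8a2* and *Col10a1* gave 2 calls, both close to the threshold. *Col7a1*, the chain of anchoring fibrils in skin, was higher in GAL1+ cells by 1.00 on the log2 scale (adjusted p = 0.0479), a call lost under 8 of 14 alternatives, with 0.47 without the GAL1- library of T3. *Col8a2*, of the hexagonal networks in cornea and vessel wall, had 1.45 (adjusted p = 0.0496), lost under 10 of 13 alternatives, higher in 2 of 3 tumors, and at or under the floor in 1 GAL1- library. Leaving out T5 gave 0.77 and leaving out T4 2.38, and the call was lost without either of the libraries that stood apart. Of the transmembrane collagens *Col13a1*, *Col23a1* and *Col25a1*, *Col25a1* was called (log2 fold change 1.31, adjusted p = 0.0467), higher in 2 of 3 tumors and lost under 6 of 14 alternatives, with 0.72 without the GAL1- library of T3 and 2.02 without T4. *Col26a1* and *Col28a1* were not called.

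Among the laminins, 3 of 9 chains were called higher in GAL1+ than in GAL1- cells and 0 lower, where 28.9% and 29.3% of all genes were. With T3 left out, or with only its GAL1- library left out, 2 were called higher and 1 lower. Of all 18180 genes 4139 were then called higher and 3956 lower without T3, and 4816 and 4698 without that library. The 3 were *Lamc3*, *Lama2* and *Lamb2*, and the most abundant chains, *Lamc1*, *Lama5*, *Lama4* and *Lamb1*, were not called in any comparison.

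*Lamc3*, the gamma3 chain, was at 3.46, 3.06 and 2.70 in GAL1+, 0.16, 1.27 and 0.36 in GAL1-, 3.10, 2.76 and 1.69 in PDGFRA+ and 2.45, 2.31 and 1.69 in PDGFRA- cells. All GAL1- values lay under all other libraries. The log2 fold change was 2.47 in GAL1+ over GAL1- cells (SE 0.31, adjusted p = 0.000157), or 5.56-fold, called under all 14 alternatives. It was 1.92 in PDGFRA+ over GAL1- cells (adjusted p = 0.00469), a call lost without T3 (adjusted p = 0.089). *Lama2*, the alpha2 chain of muscle and of the brain's perivascular sheath, was at 4.59, 5.46 and 3.99 in GAL1+ and 1.21, 4.77 and 2.61 in GAL1- cells, a log2 fold change of 1.82 (SE 0.52, adjusted p = 0.0131) with overlapping ranges. It was 1.04 without T3, 1.07 without the GAL1- library of T3 (adjusted p = 0.0359) and 2.03 without T5 (adjusted p = 0.0678). *Lamb2*, the beta2 chain, was at 5.14, 6.63 and 4.68 in GAL1+, 2.96, 5.22 and 4.12 in GAL1-, 5.01, 5.25 and 4.78 in PDGFRA+ and 4.43, 7.24 and 4.04 in PDGFRA- cells. It differed by 1.38 (SE 0.48, adjusted p = 0.0328) between GAL1+ and GAL1- cells, lost under 3 of 14 alternatives, with 1.01 without the GAL1- library of T3 (adjusted p = 0.142).

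*Lamc1*, the gamma1 chain present in most laminins, varied least among the abundant chains, at 7.80, 8.41 and 7.24 in GAL1+, 7.35, 7.97 and 7.57 in GAL1-, 7.95, 7.97 and 7.57 in PDGFRA+ and 7.65, 9.05 and 7.28 in PDGFRA- cells. *Lamb1*, the beta1 chain, was at 6.45, 7.14 and 5.48 in GAL1+, 4.40, 6.29 and 5.62 in GAL1-, 6.31, 6.58 and 5.87 in PDGFRA+ and 5.91, 7.77 and 4.77 in PDGFRA- cells. In both genes the PDGFRA- library of T4 was the highest of the 12. *Lama4* and *Lama5*, the alpha chains of endothelial basement membranes, were also highest in that library, at 8.49 and 9.35. In the other 11 libraries *Lama4* lay between 5.37 and 7.60 and *Lama5* between 5.57 and 8.09, and their GAL1+ and GAL1- values overlapped. *Lama1*, an alpha chain of embryonic and meningeal basement membranes, was called higher in PDGFRA+ than in GAL1+ cells (log2 fold change 1.08, adjusted p = 0.0461), lost under 7 of 14 alternatives, with 0.91 without T4 and 0.87 without T5. Per kilobase, *Lama4* over *Lama2* had a log2 mean of 2.36 in GAL1+ (1.82 to 2.68) and 4.54 in GAL1- cells (3.16 to 6.18), with 3.07 in PDGFRA+ cells.

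Genes that make, bind or sense these proteins were read from lists chosen for their role. Of 29 genes of collagen biosynthesis and processing, 11 were called higher and 7 lower in GAL1+ than in GAL1- cells, 37.9% and 24.1%, where 28.9% and 29.3% of all genes were, with a median log2 fold change of 0.14. The highest were *Lox*, which cross-links collagen (2.13, adjusted p = 0.0127), and *Adamts2*, a procollagen N-proteinase (1.59, adjusted p = 0.0102). The lowest were *Pcolce2*, an enhancer of the procollagen C-proteinase (-2.69, adjusted p = 0.000649), and *Adamts3*, a further N-proteinase (-2.50, adjusted p = 0.000109). In PDGFRA+ over GAL1+ cells 6 were called higher and 7 lower, against 20.9% and 17% of all genes, with *Pcolce2* at 2.29, *Adamts3* at 2.19, and *P4ha2* and *P4hb*, subunits of the prolyl 4-hydroxylase, at -0.94 and -0.76. In PDGFRA+ over GAL1- cells 2 were called, *Plod1*, a lysyl hydroxylase (0.60, adjusted p = 0.0238), and *Colgalt1*, which adds galactose to hydroxylysine (0.49, adjusted p = 0.0204).

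Of 12 partners in the basement membrane, 5 were called higher and 4 lower in GAL1+ than in GAL1- cells, where 28.9% and 29.3% of all genes were. *Nid1*, which bridges laminin and type IV collagen, had a log2 fold change of 1.94 (adjusted p = 0.00113) and *Tinagl1* 1.86 (adjusted p = 0.0364). *Smoc1* had -2.72 (adjusted p = 0.00024) and *Ntn4*, a laminin-related netrin, -1.45 (adjusted p = 0.0171). In PDGFRA+ over GAL1+ cells 3 were called higher, with *Smoc1* at 2.51 and *Ntn4* at 1.42, and in PDGFRA+ over GAL1- cells *Nid1* was called at 1.38 (adjusted p = 0.0391), a call lost without the GAL1- library of T3. Of 14 collagen and laminin receptors, 2 were called higher and 3 lower in GAL1+ than in GAL1- cells, under those shares of all genes. These include *Lair1*, an inhibitory collagen receptor of leukocytes (5.19, adjusted p = 6.72e-05), *Itga6*, an integrin subunit for laminin (2.92, adjusted p = 5.7e-05), and the collagen-activated receptor kinases *Ddr1* (-2.25, adjusted p = 0.000171) and *Ddr2* (-1.56, adjusted p = 0.000633). The same 4 genes were called with the opposite sign in PDGFRA+ over GAL1+ cells, at -1.72, -1.44, 1.94 and 1.20. In PDGFRA+ over GAL1- cells *Lair1* was at 3.47 (adjusted p = 0.00396) and *Itga6* at 1.48 (adjusted p = 0.0115). In PDGFRA+ against PDGFRA- cells limma called 0 genes of these 3 lists, with 3, 2 and 1 at an unadjusted p under 0.05.

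Markers of other cell types differed between the GAL1 gates, while in PDGFRA+ against PDGFRA- cells limma called 0 of them, as of all genes. There 7 of 8 mature oligodendrocyte markers had an unadjusted p under 0.05, against 11.8% of all genes. In GAL1+ over GAL1- cells 11 of 12 endothelial, 10 of 11 pericyte and smooth muscle and 12 of 12 leukocyte markers were called higher. Fibroblast markers had 2 of 6 called higher, near the 28.9% of all genes. Of the oligodendrocyte progenitor markers 8 of 8 were called lower, where 29.3% of all genes were. Summed CPM of the endothelial markers was 327 to 420 in GAL1+, 48.5 to 97.2 in GAL1-, 169 to 359 in PDGFRA+ and 242 to 265 in PDGFRA- libraries. For pericyte and smooth muscle markers it was 330 to 367, 43.7 to 65.8, 162 to 268 and 226 to 329 in the same order, and for leukocyte markers 3087 to 4325, 85.2 to 227, 691 to 1644 and 740 to 3376. Fibroblast markers were scarce throughout, at 14 to 36.3 in GAL1+ and 5.9 to 9.94 in GAL1- libraries. Mature oligodendrocyte markers summed to 905 to 1262 in PDGFRA- and 371 to 481 in PDGFRA+ libraries, and 7 of 8 were called lower and 1 higher in GAL1+ than in GAL1- cells. Of 6 astrocyte markers 2 were called lower, a share near that of all genes, and of 3 choroid plexus markers limma called 0. Progenitor markers ran the other way, at 525 to 1503 in GAL1+ and 3994 to 4830 in GAL1- libraries. All endothelial markers but *Emcn* and all pericyte markers but *Higd1b* were above the floor in every GAL1- library.

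Sums of the collagen and laminin classes were set beside those of the vascular markers. In T3, T4 and T5 basement membrane collagens summed to 1413, 2574 and 652 in GAL1+ and 618, 1277 and 734 in GAL1- libraries. Laminins summed to 597, 1086 and 343 in GAL1+ and 451, 864 and 534 in GAL1- libraries. Both sums were higher in the GAL1+ cells of T3 and T4 and lower in those of T5. The endothelial and pericyte marker sums were higher in the GAL1+ cells of each tumor. In the PDGFRA- library of T4 basement membrane collagens summed to 3961 and laminins to 1999. The sums of endothelial (242), pericyte (226) and leukocyte markers (740) there were the lowest of the 3 PDGFRA- libraries. Most single endothelial and pericyte markers were higher in the PDGFRA- library of T4 than in that of T5, against the order of these sums. *Cdh5* was at a log2 CPM of 4.29 in T4 and 3.39 in T5, and *Pdgfrb* at 4.89 and 4.16. The most abundant marker of each list in T5 was lower in T4, *Flt1* at 6.50 in T4 and 7.25 in T5 and *Anpep* at 4.86 and 7.69. *Pecam1*, *Ly6c1* and *Vtn* were also lower in T4 than in T5. Astrocyte markers (560) and mature oligodendrocyte markers (1262) in the T4 library were the highest of the 12. The part of these cell types in the fold changes above was not tested.

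**Figure D5:**
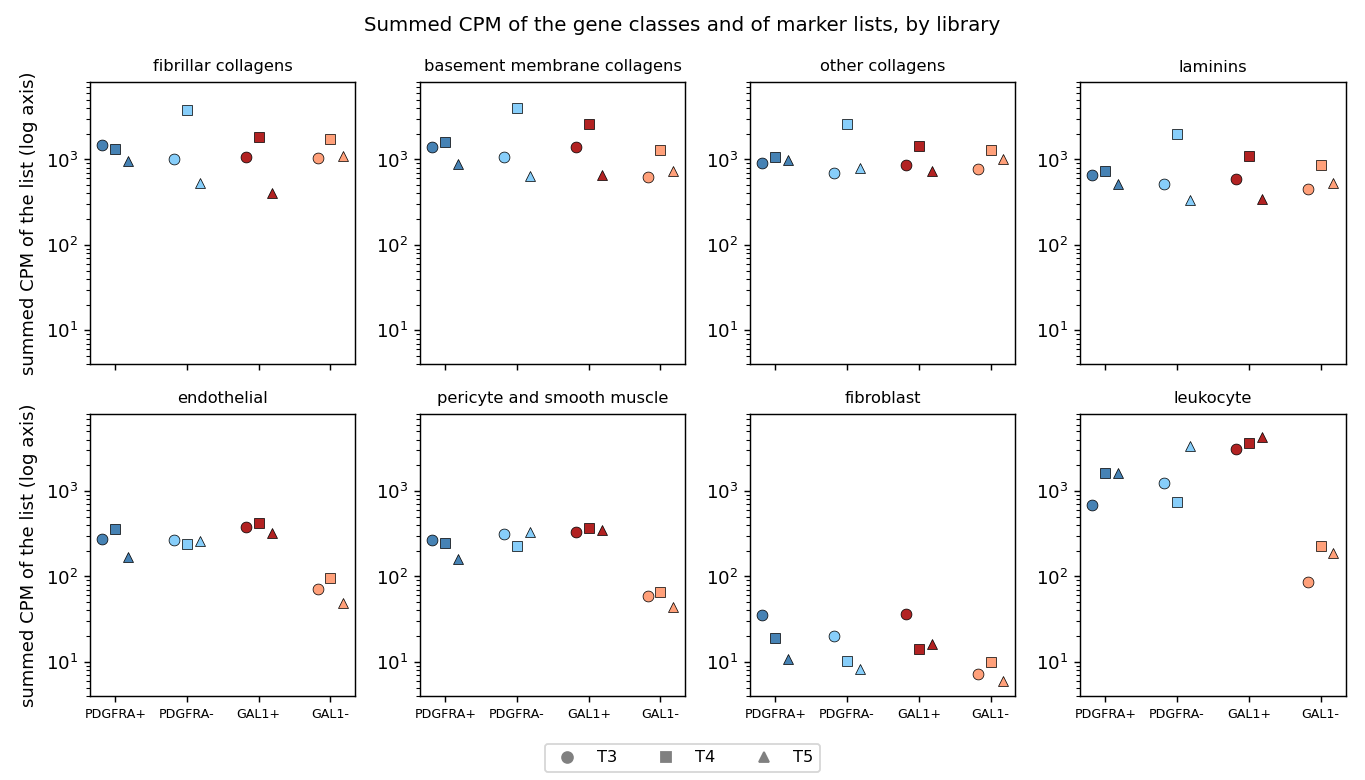
Points are the summed CPM of a gene class (upper row) or of a marker list (lower row) in each library, on log axes, with a marker shape per tumor. Endothelial and pericyte markers are lowest in the 3 GAL1- libraries. The collagen and laminin sums peak in the PDGFRA- library of T4, and their ranges overlap between populations. Within a tumor, basement membrane collagens and laminins are higher in GAL1+ than GAL1- cells of T3 and T4 and lower in T5.

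A promoter window was found for 36 of the 50 genes in the RefSeq table. Beside the type IV pair, the windows of *Col1a2*, called higher in GAL1+ than in GAL1- cells, and of *Col11a1*, called lower, are shown as fibrillar chains that moved in opposite directions. They are chr6:4505368-4505667 and chr3:114030290-114030589, both on the plus strand of GRCm38.p6, with the letters CCAAT and GGGCGG, on either strand, in capitals.

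Col1a2: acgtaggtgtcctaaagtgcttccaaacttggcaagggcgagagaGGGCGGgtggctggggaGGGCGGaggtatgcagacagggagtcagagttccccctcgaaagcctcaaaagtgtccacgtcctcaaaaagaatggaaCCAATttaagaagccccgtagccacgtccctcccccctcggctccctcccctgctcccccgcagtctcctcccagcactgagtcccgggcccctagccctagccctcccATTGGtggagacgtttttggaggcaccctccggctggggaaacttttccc
Col11a1: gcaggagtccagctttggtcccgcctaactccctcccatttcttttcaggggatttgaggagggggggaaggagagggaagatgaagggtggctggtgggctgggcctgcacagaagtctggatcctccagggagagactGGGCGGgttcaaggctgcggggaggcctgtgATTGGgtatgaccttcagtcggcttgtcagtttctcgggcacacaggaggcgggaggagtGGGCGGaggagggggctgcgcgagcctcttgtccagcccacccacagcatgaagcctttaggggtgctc

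The *Col1a2* window holds CCAAT 2 times and GGGCGG 2 times, and the *Col11a1* window 1 and 2 times, with no overlap between matches. The *Col4a1* window holds them 1 time each and the *Col4a2* window 1 and 3 times, and none of the 4 windows holds TATAAA. Searched on both strands, CCAAT occurs in 37.4% of all 32851 promoter windows of this length, GGGCGG in 35.7% and TATAAA in 13.6%. Of the 39 windows of collagen and laminin genes, 13 hold CCAAT, 25 GGGCGG and 4 TATAAA. These matches describe the letters only.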

How the data were processed

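RNA of sorted EGFR+ cells was sequenced with a total RNA pico-input kit on 12 libraries, 4 populations from each of 3 tumors. The authors trimmed reads with fastp, mapped them to mm39 by STAR in 2 passes and assigned them to exons using featureCounts (multi-mapping reads as fractions), kept genes above a CPM minimum, normalized with TMM and applied voom. Tool versions and the strand setting of the counting are not given in the sources used here. What the authors deposited is a table of log2 CPM, which fits voom's offset of 0.5 on each count. Overlapping or antisense genes may share reads.

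To recover reads, a library's minimum was read as 0 reads, after which 41.3% to 59.2% of values were whole within 0.01 reads, so count tests were not the main test. All 12 libraries entered 1 linear model in limma 3.58.1 (R 4.3.3), with population and tumor as terms. Its moderated two-sided test used a trend in the variance, with 6 residual degrees of freedom and 3.49 from the prior, and p-values were adjusted by Benjamini-Hochberg over 18180 genes. The study also used limma with tumors as covariates. Tumor numbers pair the libraries because they mark the same tumor. Deviations from population means correlated across genes by 0.486 on average over 18 same-tumor pairs (0.140 to 0.662). Each tumor is taken as 1 animal, so 3 replicates stand behind each population.

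The match by symbol uses no value, but the choice of collagen and laminin genes as the subject, the gene lists and the comparisons were made with earlier results of these data known. Genes named with values are the 4 most abundant of each class, the 3 largest called changes per direction and comparison that kept 1 direction in all 3 tumors and had more than 3 reads in 3 libraries, and their partner chains. Of each list of related genes, the 2 largest called changes per direction are named. Names given beyond this rule were chosen after their values were seen. Exon lengths are GENCODE vM21 unions (GRCm38), used for levels per kilobase only, and promoter windows are RefSeq's. Alternatives were a fit with no block, with only the 2 populations compared, without a trend, robust, or with voom weights on recovered reads, log2(CPM + 1), a filter at a log2 CPM above 1 in 3 samples, quantile normalization, median centring and leaving out each tumor. Leaving out the PDGFRA- library of T4 or the GAL1- library of T3 was added after seeing the data. Figures were drawn with matplotlib 3.10.9. Some items of the genotype and of the gene lists are not reported here.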

Additional observations from a re-analysis of the deposited data

How the results depend on the processing

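Over 14 alternatives, the count of the 50 genes called higher in GAL1+ than in GAL1- cells ran from 5 to 16 (15 in the fit reported) and the count lower from 7 to 11 (8). Without the tumor block, so without the pairing of libraries by tumor, 5 were higher and 7 lower. Leaving out a tumor gave 5 to 15 higher and 7 to 11 lower. Over the 14 alternatives 4039 to 5462 of all genes were called higher and 3956 to 5625 lower. In PDGFRA+ over GAL1+ cells 8 were higher and 2 lower. These became 3 and 1 without the block, 9 and 2 without the PDGFRA- library of T4, and 4 to 8 and 0 to 2 with a tumor left out. Of all genes 2215 were called higher and 939 lower without the block, and 4184 and 3703 without that library. In PDGFRA+ over GAL1- cells 4 were higher and 0 lower. These became 2 and 0 without the block, 10 and 6 in a fit of only the 2 populations compared, and 7 higher without the PDGFRA- library of T4, and 0 to 5 were higher with a tumor left out. Of all genes 611 were called higher and 1 lower without the block, 2385 and 1001 in that fit, and 1906 and 14 without that library. In PDGFRA+ against PDGFRA- cells 0 were called under every alternative. The causes were not tested, except that dropping samples leaves fewer of them. No gene with an unadjusted p under 0.05 in the fit reported changed sign under an alternative. In GAL1+ over GAL1- cells 11 of the 23 calls were made under all alternatives (*Col1a1*, *Col2a1*, *Col6a3*, *Col9a1*, *Col9a2*, *Col9a3*, *Col11a1*, *Col11a2*, *Col14a1*, *Col19a1* and *Lamc3*), and the least stable were *Col8a2* (lost under 10 of 13), *Col7a1* (8 of 14) and *Col25a1* (6 of 14). Each population has 3 tumors, and genes near the floor rest on few reads. How much each limits the precision was not tested.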

Other observations

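A few collagen and laminin genes differed more between tumors than between gates. They were chosen after their values were seen, and with each tumor taken as 1 animal there is no test. *Col10a1*, known from hypertrophic cartilage, was at a log2 CPM of 3.30, 1.94, 3.38 and 0.18 in the PDGFRA+, PDGFRA-, GAL1+ and GAL1- cells of T3, and between -3.31 and -0.03 in the 8 libraries of T4 and T5. *Col28a1* was at 3.61, 6.59, 4.79 and 4.81 in T4, 2.15, 2.72, 2.19 and 2.42 in T5, and -0.24, -0.64, 1.97 and -0.73 in T3, in the same order of populations. *Col4a6* was highest in T5, at 5.71, 3.24, 4.38 and 5.98, and lay between 0.70 and 3.13 in T3 and T4. *Lama3*, the alpha3 chain of epithelial laminin, was at 3.62, 2.97 and 3.90 in the PDGFRA+, GAL1+ and GAL1- cells of T5, at 1.16 in its PDGFRA- cells, and between -0.14 and 2.29 in the libraries of T3 and T4.

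In the RefSeq order of protein-coding genes, 7 pairs of collagen genes lie next to each other. In GAL1+ over GAL1- cells both members were called in the same direction in 2 of these pairs, *Col4a1* with *Col4a2* (1.17 and 1.51) and *Col9a1* with *Col19a1* (-2.70 and -2.73). In *Col3a1* with *Col5a2* and in *Col4a4* with *Col4a3* 1 of the pair was called, and in *Col6a2* with *Col6a1*, *Col6a5* with *Col6a4* and *Col4a6* with *Col4a5* neither was.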
